A study of Mus musculus with 8 samples.

Results

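Interleukins, the cytokines that pass signals between leukocytes and tissue cells, and their receptors were examined together with leukaemia inhibitory factor, oncostatin M and their receptors in the gastrocnemius muscle of arthritic mice. Members were chosen by gene symbol alone: every symbol that begins with Il and a digit, plus Lif, Lifr, Osm and Osmr. This gave 86 of the 21833 gene symbols in the count tables, of which 39 encode ligands or ligand subunits, 40 receptor chains, 6 inhibitors or decoy receptors and 1 an enzyme (Il4i1, an amino acid oxidase that carries the prefix). The mice were male C57BL/6J animals aged 12 weeks that had received 100 µL of pooled K/BxN serum into the peritoneum on day 0 and again on day 2, which transfers antibody-driven arthritis. The RA group (n = 4 mice) had serum only, and the RA+Dipy group (n = 4 mice) was also dosed daily, from the first serum injection on, with 25 mg/kg dipyridamole, a blocker of nucleoside uptake that raises extracellular adenosine. On day 16 the muscle was collected and sequenced as poly(A) RNA. All 8 mice carried the arthritis serum and there was no group without it, all are labelled with the K/BxN genotype although the design text describes C57BL/6J recipients of serum, and the treatment protocol field lists the drug for the RA samples as well. Samples were grouped by their titles.

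Most interleukins act at short range and at low concentration, and are transcribed in brief bursts by activated immune or stromal cells. Their receptors are built from a specific chain that binds the ligand and a shared chain that signals: gp130, encoded by Il6st, serves interleukin 6, interleukin 11, leukaemia inhibitory factor and oncostatin M, and the common gamma chain, Il2rg, serves interleukins 2, 4, 7, 9, 15 and 21. In skeletal muscle, interleukin 6 and interleukin 15 are known as myokines, and gp130 signalling through JAK and STAT3 is a known route to wasting in cachexia.

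The tables held 16405268 to 50647761 counts per library over protein-coding genes. RA replicate 4 and RA+Dipy replicate 1 stood apart from the others over all genes. RA replicate 4 held the highest or the lowest value of the 8 libraries for 25 of the 33 members that could be tested (75.8%), against 66.2% of all genes tested, and RA+Dipy replicate 1 for 6 (18.2%), against 44.2%. For the members, RA replicate 2 was extreme more often, for 10 (30.3%), against 19% of all genes. RA+Dipy replicate 3 was extreme for 7 (21.2%), against 11.1%. Values without RA replicate 4, RA+Dipy replicate 1 or both are given below beside the members whose difference depended most on these 2 libraries. The plot of fold changes gives the values without both for the tested members other than Lif. A count of 0 (upper limit of 3 reads) allows 0.0591 CPM in RA replicate 1 and 0.254 CPM in RA replicate 4 (CPM, the usual read count scaled for library depth, here with TMM factors), as counting error only.

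Few of the cytokines themselves could be measured, while most receptor chains could. Of the 86 members 33 passed the count filter, which asks for about 0.409 CPM in at least 4 libraries: 8 of 39 ligands, 23 of 40 receptor chains and 2 of 6 inhibitors. No member passed through the libraries of a single group alone. The other 53 are reported as not measured, and 13 of them had no read in any library, among them the ligands Il3, Il5, Il9, Il13, Il20, Il22 and Il31 and the receptor chains Il22ra1 and Il23r. Summed over all ligands the level was 22.8 to 32.7 CPM per library. The receptor chains summed to 640 CPM in RA replicate 4 and to 304 to 353 CPM in the other 7 libraries.

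**Figure D1:**
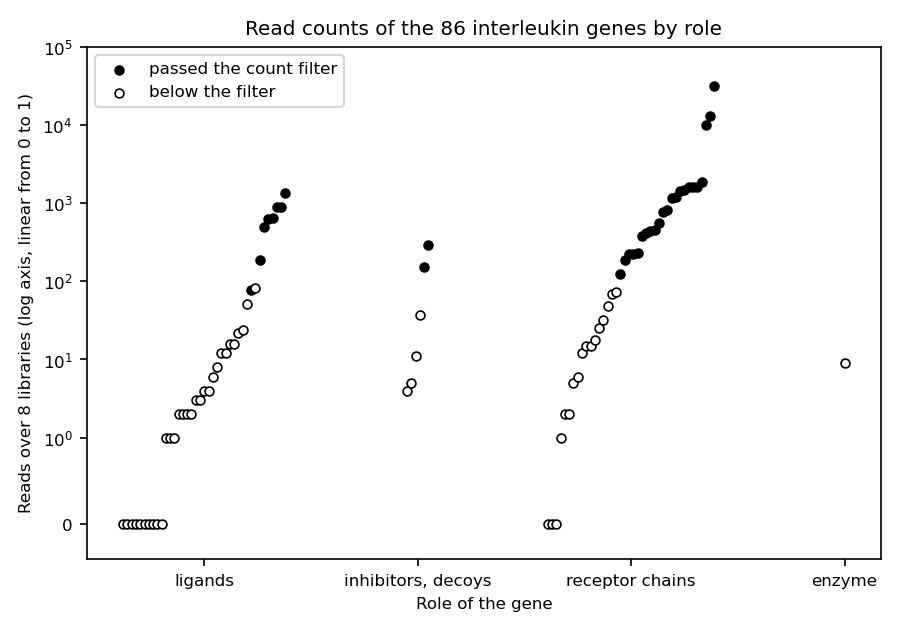
Each point is a gene, placed by its role on the horizontal axis and by its reads summed over the 8 libraries on the vertical axis, which is logarithmic above 1 and linear from 0 to 1. Filled points passed the count filter (8 ligands, 2 inhibitors, 23 receptor chains), and 13 genes lie at 0.

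The classic inflammatory cytokines were among the genes not measured. Il6, the main acute-phase cytokine, had 2, 2, 2 and 0 reads in RA replicates 1 to 4 and 3, 3, 3 and 1 reads in RA+Dipy. Il1b, the inflammasome product, had 0, 2, 2 and 5 reads against 0, 3, 4 and 6. Its antagonist Il1rn had 0, 3, 3 and 11 reads against 5, 5, 4 and 6, with the highest number in RA replicate 4. The reads of these genes overlapped between the groups and are too few for a comparison. Il10, an anti-inflammatory cytokine, had 2 reads in each group, all RA reads lying in replicate 2. Il17a, the cytokine of type 17 T cells, had 1 read in all, in RA replicate 4, and Il1a had 0 reads in RA and 4 in RA+Dipy. Osm had 8, 0, 1 and 0 reads against 0, 0, 2 and 1. Il2, the T cell growth factor, had 6 reads in each group. Il7, the lymphocyte survival factor, had 4, 6, 6 and 2 reads in RA and 10, 3, 7 and 13 in RA+Dipy, values that overlapped. Lif, with 78 reads in all, passed the filter, reaching its cutoff in 2 libraries of each group. Il4, with 81 reads, reached the cutoff in 1 library of each group and did not pass. Il4 had 23, 10, 7 and 6 reads in RA and 3, 16, 8 and 8 in RA+Dipy.

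Il6 and Lif are inducible cytokine genes, and the promoters of both hold the AP-1 letters TGANTCA, searched on both strands of the 250 bases before the start site. Of the members, 68 were in the RefSeq promoter table (GRCm38.p6), with 84 start sites. The AP-1 letters stood in 15 of these 84 windows (17.9%) and in 6.75% of all 32851 windows. The letters TTCNNNGAA, a STAT pattern, stood in 8 (9.52%) and in 7.02% of all, and the consensus NF-kB site of the immunoglobulin kappa enhancer in 0 and in 0.14% of all. The NF-kB site was searched as 1 fixed string, without free positions such as the N of the AP-1 and STAT patterns. Variants of it were not searched, so the 0 does not show that these promoters, that of Il6 included, lack NF-kB sites. A match is a string of letters, not a measured binding site, and the windows of 1 gene can overlap. The promoters of Il6 and Lif are shown for the motif, and that of Il13ra1 because its values separated the groups. Capitals mark the AP-1 letters. The Il13ra1 window holds none of the 3 patterns and has a GC content of 70.8%, against 42.8% for Il6 and 63.6% for Lif.
Il6 (chr5:30012864-30013113, plus strand): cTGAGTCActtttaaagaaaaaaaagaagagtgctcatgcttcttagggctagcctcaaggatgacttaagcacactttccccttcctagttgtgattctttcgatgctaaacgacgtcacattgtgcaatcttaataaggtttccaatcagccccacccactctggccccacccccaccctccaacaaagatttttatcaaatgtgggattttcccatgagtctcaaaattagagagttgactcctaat
Lif (chr11:4257318-4257567, plus strand): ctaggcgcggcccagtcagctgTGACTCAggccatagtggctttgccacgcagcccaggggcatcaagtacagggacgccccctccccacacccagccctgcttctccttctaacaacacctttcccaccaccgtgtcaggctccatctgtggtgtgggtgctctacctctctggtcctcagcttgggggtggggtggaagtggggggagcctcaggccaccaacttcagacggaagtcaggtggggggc
Il13ra1 (chrX:36111858-36112107, plus strand): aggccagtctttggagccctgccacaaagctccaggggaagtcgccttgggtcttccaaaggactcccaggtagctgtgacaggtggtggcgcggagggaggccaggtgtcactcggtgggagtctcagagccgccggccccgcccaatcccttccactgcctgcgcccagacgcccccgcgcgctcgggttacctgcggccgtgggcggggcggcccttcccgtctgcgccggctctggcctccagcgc

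Il11ra1 and Il11ra2, which encode the alpha chain of the interleukin 11 receptor, share part of their sequence, and Gm13305 shares the rest of Il11ra2. Each of the 1200 stretches of 100 bases in the Il11ra2 transcript of GENCODE vM21 also occurs in a transcript of Il11ra1 or of Gm13305, and 502 of them (41.8%) occur in Il11ra1. In turn 29.1% of the stretches of Il11ra1 occur in another gene. Il11ra2 and Gm13305 had 0 counts in all 8 libraries, and a read from Il11ra2 matches another gene everywhere, so these zeros say nothing of whether that copy was transcribed. The first 100 bases of the Il11ra2 transcript, an open reading frame, are present unchanged in Il11ra1 and show the identity.
Il11ra2, positions 1 to 100: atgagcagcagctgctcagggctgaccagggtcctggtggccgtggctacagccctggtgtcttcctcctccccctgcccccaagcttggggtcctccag

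With dipyridamole, no interleukin or receptor gene differed past the adjusted threshold, and the nominally higher members were the receptor chains Il1rl2 and Il13ra1. In edgeR 0 of 33 members had an adjusted p under 0.05, as had 0 of all 12755 genes tested (0%), and the members' smallest adjusted p was 0.882. By unadjusted p under 0.05, 2 members stood out, both higher in RA+Dipy, where 3.83% of all genes had such a p (1.68% higher, 2.15% lower). DESeq2 called 0 members, with 4 at an unadjusted p under 0.05 against 5.8% of all genes, and limma-voom 0, with 2 against 2.86%. The smallest adjusted p over all genes was 0.252 with DESeq2 and 0.877 with limma-voom. Limma-voom with library weights, in contrast, called 138 of the 12755 genes (smallest adjusted p 0.019). It called 0 members (smallest adjusted p 0.0513), with 12 at an unadjusted p under 0.05 where 28.3% of all genes had such a p. The log2 fold change of RA+Dipy over RA was positive for 20 members and negative for 13, with a median of 0.04, against a positive value for 52.2% of all genes and a median of 0.02. For 1 member, Il13ra1, the RA and RA+Dipy values were fully separate, as they were for 2.72% of all genes.

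The count of 2 members depended on single libraries. Leaving out RA+Dipy replicate 3 or RA+Dipy replicate 4 gave 0, where 1.43% and 1.38% of all genes had such a p. Leaving out RA replicate 2 gave 5 (9.21% of all genes), with Il13ra1, Il1rl2 and Osmr higher and Il11ra1 and Il17rc lower. Without RA replicate 3 it was 3 (4.34%), with Il13ra1 higher and Il11ra1 and Il17rc lower, and Il1rl2 was not among them. Without RA replicate 4 it was 3 (4.02%), Il13ra1, Il1rl2 and Il2rg, all higher. Leaving out RA replicate 1 gave 2 (2.29%), but these were Il11ra1 and Il17rc, both lower. Without RA replicate 4 and RA+Dipy replicate 1 together it was 6, of which Il1rl2, Il13ra1, Il2rg, Il17ra and Il17rd were higher and Il11ra1 lower, where 11.4% of all genes had such a p (5.96% higher, 5.45% lower) and 0% were called. In that fit Il4 (0.14) passed the filter and Lif did not. There 26 of 33 members, Il4 included, were positive, against 51.3% of all genes. The median was 0.16 over the members and 0.01 over all genes.

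**Figure D2:**
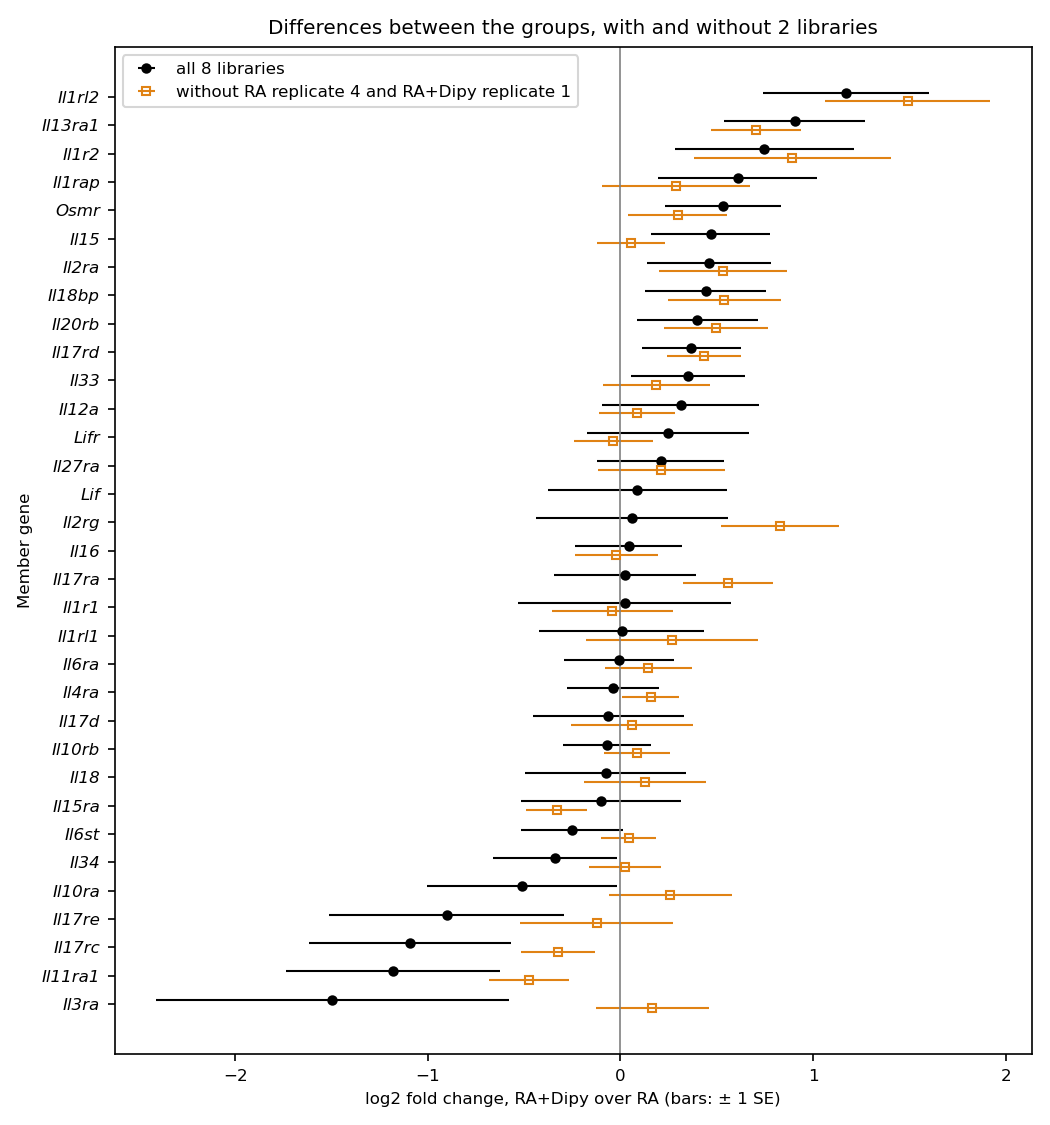
Log2 fold changes of the 33 tested members (horizontal axis, RA+Dipy over RA, bars ± 1 SE) in order of size, from all 8 libraries (filled circles) and without RA replicate 4 and RA+Dipy replicate 1 (open squares; Lif was below the filter there). Il3ra, Il11ra1, Il17rc and Il17re lie lowest with 8 libraries, at −1.50 to −0.90, and between −0.47 and 0.16 without the 2 libraries.

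Among the ligands that could be measured, none stood apart between the groups. Il15, a myokine that supports natural killer cells and memory T cells, was at 3.84, 4.09, 4.41 and 2.28 CPM in RA replicates 1 to 4 and at 7.79, 4.10, 4.62 and 4.00 CPM in RA+Dipy. The values of 3 libraries in each group lay between 3.84 and 4.62 CPM, with RA replicate 4 below and RA+Dipy replicate 1 above them. The log2 fold change was 0.47 (SE 0.31, adjusted p = 0.882) and 0.05 without these 2 libraries. Il33, an alarmin of stromal cells, was at 2.44, 4.74, 5.31 and 3.21 CPM in RA and at 6.14, 4.17, 4.77 and 5.0 CPM in RA+Dipy (log2 fold change 0.35, SE 0.29), and the groups overlapped. It stood at 0.17 without RA replicate 1, the lowest library, and at 0.19 without the 2 libraries that stood apart.

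Il34, the second ligand of the macrophage receptor Csf1r, was at 6.60, 4.52, 6.52 and 13.0 CPM in RA and at 6.20, 5.98, 5.47 and 6.40 CPM in RA+Dipy. The RA+Dipy libraries were close together (SD 0.402 CPM), and the negative log2 fold change of −0.34 (SE 0.32) became 0.04 without RA replicate 4. Il12a, the p35 subunit shared by interleukins 12 and 35, was at 2.86, 3.49, 3.24 and 0.676 CPM against 2.90, 3.32, 3.00 and 3.76 CPM, so that the value of RA replicate 4 alone lay apart. Its log2 fold change was 0.31 (SE 0.41) and 0.04 without that library. Il12b, the p40 partner needed for interleukin 12, had 2 reads in all 8 libraries. Il16 (0.04, SE 0.28), Il17d (−0.06, SE 0.39), Il18 (−0.08, SE 0.42) and Lif (0.09, SE 0.46) had differences smaller than their SE. Il16, a chemoattractant for CD4+ cells, was at 3.41, 2.81, 3.09 and 1.86 CPM against 2.44, 3.80, 2.54 and 2.80 CPM. Il18, the other inflammasome product, was at 0.768, 0.783, 0.703 and 1.86 CPM against 1.32, 0.960, 0.577 and 0.920 CPM. In both genes the groups overlapped and RA replicate 4 was an extreme library.

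Receptors of the gp130 family were the most abundant members. Per kilobase of exon, Il11ra1 and Il6st had the highest mean levels over the 8 libraries, at 17.0 and 13.9 CPM per kb. Lifr followed at 4.32, Il17rc at 3.51, Il34 at 3.49 and Il3ra at 3.43. Without RA replicate 4 the means were 11.2 for Il11ra1, 13.0 for Il6st, 4.78 for Lifr, 2.37 for Il17rc and 3.04 for Il34. That of Il3ra, which stood at 16.7 in RA replicate 4, was 1.53 over the other 7 libraries. The order of the first 2 was not fixed: in RA+Dipy, Il6st had 12.7 ± 2.14 and Il11ra1 10.4 ± 3.24 CPM per kb (SD, n = 4), ranges that overlap. Of the 100-base stretches of Il11ra1 29.1% occur in another gene, against 0% for Il6st. Reads from shared stretches may not have been counted, so the level of Il11ra1 per kb may be too low. Osmr (0.498) and Il6ra (0.689) lay far lower.

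Il6st (chromosome 13, 112464070 to 112510086, GRCm38), the shared signalling chain gp130, was at 138, 168, 141 and 226 CPM in RA and at 108, 146, 148 and 164 CPM in RA+Dipy. RA replicate 4 was the highest and RA+Dipy replicate 1 the lowest of all. The log2 fold change was −0.25 (SE 0.26, adjusted p = 0.884), −0.06 without RA replicate 4 and 0.04 without both. Over the 6 remaining libraries Il6st ranged from 138 to 168 CPM. Il6ra, the binding chain for interleukin 6, was at 4.73, 6.30, 4.37 and 8.54 CPM against 6.80, 4.21, 6.35 and 6.36 CPM, with fully overlapping groups (−0.01, SE 0.29).

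Lifr, the receptor for leukaemia inhibitory factor, was at 35.7, 64.6, 57.7 and 12.4 CPM in RA and at 49.4, 47.1, 53.4 and 52.5 CPM in RA+Dipy. The RA values spread over a wide range around the narrow RA+Dipy values (SD 23.6 and 2.90 CPM), and the log2 fold change of 0.25 (SE 0.42) became −0.04 without RA replicate 4. Osmr, the oncostatin M receptor, was at 3.82, 7.19, 5.27 and 3.38 CPM in RA and at 8.84, 5.02, 7.54 and 7.20 CPM in RA+Dipy. Its log2 fold change of 0.53 (SE 0.30, adjusted p = 0.882 by edgeR) was positive in all 18 alternatives, with 0.30 as the lowest value, without the 2 libraries that stood apart. The groups overlapped, since RA+Dipy replicate 2 lay below RA replicates 2 and 3.

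Il11ra1 (chromosome 4, 41699989 to 41769474) had the lowest p of the members on the lower side. It was at 66.3, 37.8, 61.6 and 255 CPM in RA and at 66.8, 43.3, 42.6 and 32.7 CPM in RA+Dipy. A single library, RA replicate 4, was far above every other, and among the remaining 7 the groups overlapped. The log2 fold change was −1.18 (SE 0.55, adjusted p = 0.882 by edgeR), −0.23 without RA replicate 4 and −0.47 (SE 0.21) without both libraries. Its ligand Il11 had 0 to 5 reads per library. Il27ra, the interleukin 27 receptor, was at 0.540 ± 0.126 CPM in RA and 0.630 ± 0.107 CPM in RA+Dipy (SD, n = 4 each), a difference smaller than its SE.

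**Figure D3:**
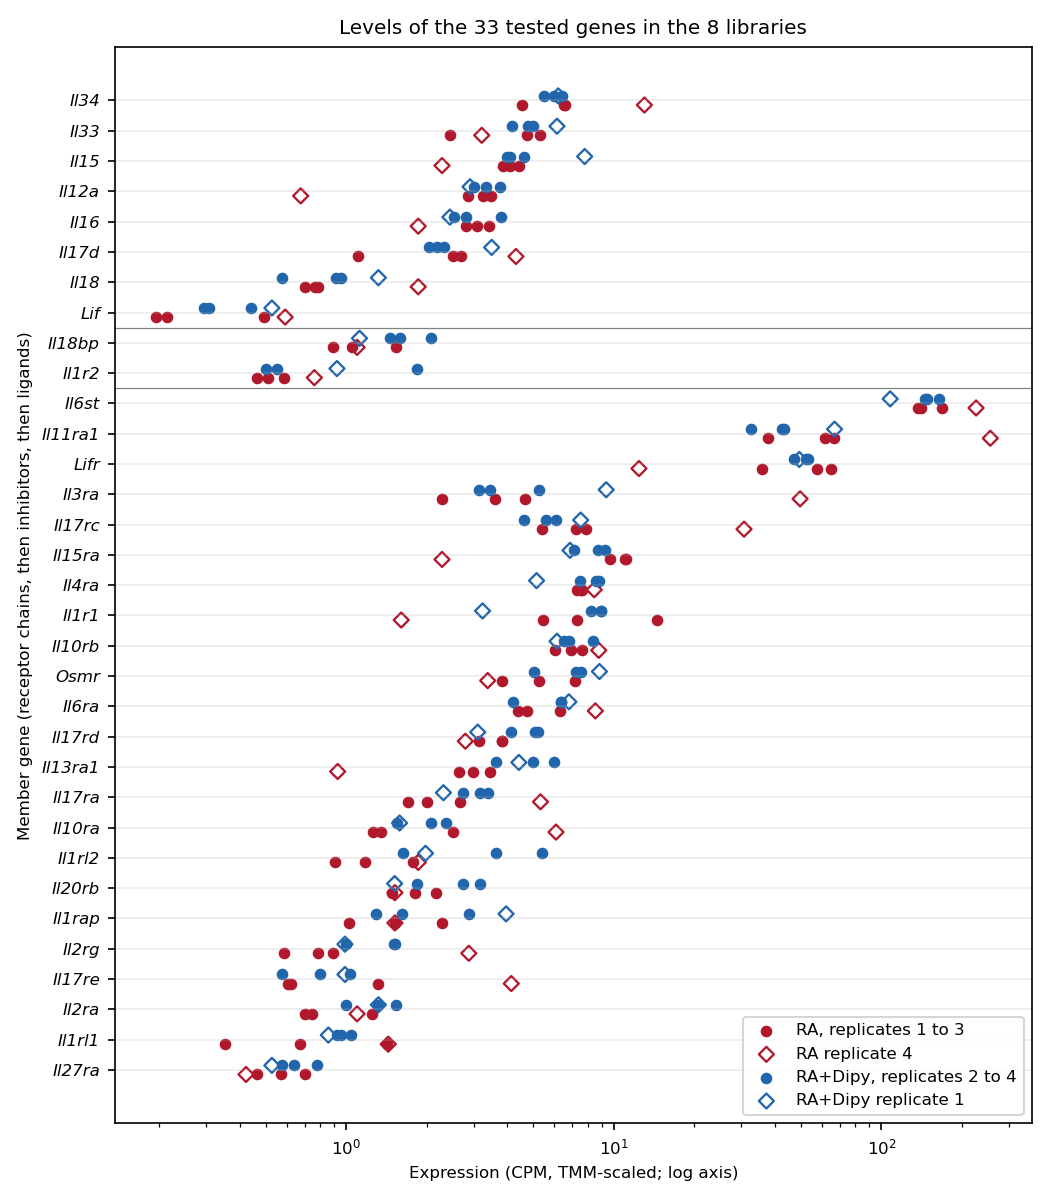
CPM (horizontal log axis) of the 33 tested members in each library, RA in red and RA+Dipy in blue, with receptor chains at the bottom, inhibitors in the middle and ligands at the top. Open diamonds are RA replicate 4 and RA+Dipy replicate 1: RA replicate 4 lies far to the right for Il11ra1 (255 CPM), Il3ra (49.7 CPM) and Il17rc (30.7 CPM), and Il13ra1 is the sole gene whose red and blue points do not overlap.

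Most receptors of the interleukin 1 family lie side by side on chromosome 1, and most of the family's measured members had positive differences. Il1r2, Il1r1, Il1rl2, Il1rl1, Il18r1 and Il18rap follow each other between 40074079 and 40551705. Of the 8 members of the family that were tested, 7 were positive, against 20 of all 33 tested members (60.6%) and 52.2% of all genes. Il1r1 (0.02, SE 0.55) and Il1rl1 (0.01, SE 0.43) among them were near 0. The 8 also include Il1rap on chromosome 16 and Il18, Il18bp and Il33 on other chromosomes. Il1rl2 (40324610 to 40367562), the receptor for interleukin 36, was at 0.906, 1.78, 1.17 and 1.86 CPM in RA and at 1.98, 1.62, 3.62 and 5.40 CPM in RA+Dipy. RA+Dipy replicates 3 and 4 were the highest of all, and RA+Dipy replicate 2 lay within the RA range. Its log2 fold change of 1.17 (SE 0.43, adjusted p = 0.882 by edgeR) was the highest of the members, stood at 0.78 without RA+Dipy replicate 4 and at 1.49 without the 2 libraries that stood apart. Il1f6, Il1f8 and Il1f9, which encode ligands of this receptor, had 1, 0 and 0 reads in all.

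Il1rl1, the interleukin 33 receptor ST2, was at 0.670, 1.42, 0.351 and 1.44 CPM in RA and at 0.858, 0.923, 1.04 and 0.960 CPM in RA+Dipy, and its difference was near 0 (0.01, SE 0.43). Il1r1, the signalling receptor for interleukin 1, was at 5.44, 14.5, 7.26 and 1.61 CPM against 3.23, 8.23, 8.93 and 8.96 CPM. RA replicate 4 and RA+Dipy replicate 1 were the lowest libraries, and the log2 fold change of 0.02 (SE 0.55) was −0.28 without RA replicate 4 and 0.60 without RA replicate 2. Il1rap, the shared accessory chain, was at 1.02, 2.28, 1.52 and 1.52 CPM against 3.96, 1.29, 1.62 and 2.88 CPM. Its difference was 0.61 (SE 0.41), and 0.28 without RA+Dipy replicate 1, the highest library.

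Both inhibitors that could be measured belong to the same family and had positive differences. Il1r2, the decoy receptor for interleukin 1, was at 0.512, 0.463, 0.586 and 0.761 CPM in RA and at 0.924, 0.554, 0.50 and 1.84 CPM in RA+Dipy. RA+Dipy replicate 4 was the highest library, and the log2 fold change of 0.75 (SE 0.47) was 0.19 without it. Il18bp, the soluble inhibitor of interleukin 18, was at 1.54, 0.890, 1.05 and 1.1 CPM against 1.12, 1.59, 1.46 and 2.08 CPM. Its groups overlapped (0.44, SE 0.32).

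Il13ra1 (chromosome X, 36112110 to 36171259), a chain of the type II receptor for interleukins 4 and 13, was the sole member whose groups did not overlap. It was at 2.64, 3.45, 2.97 and 0.930 CPM in RA and at 4.42, 3.62, 6.00 and 5.0 CPM in RA+Dipy. RA replicate 2 and RA+Dipy replicate 2 were neighbours across the gap, and RA replicate 4 was the lowest library. The log2 fold change was 0.90 (SE 0.36, adjusted p = 0.882 by edgeR), between 0.68 and 1.09 when any single library was left out, and 0.70 (SE 0.23) without the 2 libraries that stood apart. Il4ra, the chain with which it pairs, was at 7.29, 7.58, 7.58 and 8.45 CPM in RA and at 5.15, 7.5, 8.81 and 8.56 CPM in RA+Dipy, with overlapping groups (−0.04, SE 0.24). Their ligand Il13 had no read, which allows at most 3 reads in each library, and the decoy Il13ra2 had 4 reads in all.

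In the common gamma chain family, the differences of Il2rg and Il15ra depended on RA replicate 4, and that of Il2ra did not. Il2rg, the gamma chain itself, was at 0.788, 0.890, 0.586 and 2.87 CPM in RA and at 0.990, 1.51, 1.00 and 1.52 CPM in RA+Dipy. RA replicate 4 was the highest library, while the other 3 RA values lay below all 4 RA+Dipy values. The log2 fold change was 0.06 (SE 0.50), 0.75 without that library and 0.83 without both libraries that stood apart. In GENCODE vM21 30.5% of the exon bases of Il2rg also belong to Gm20489 on the same strand. Il15ra, which presents interleukin 15 to neighbouring cells, was at 9.65, 11.1, 11 and 2.28 CPM in RA and at 6.86, 8.75, 7.08 and 9.24 CPM in RA+Dipy. Here RA replicate 4 was the lowest library and the other 3 RA values lay above all RA+Dipy values. For Il2rg and Il15ra alike, RA replicate 4 was singled out by its values. The share of all genes that separate in this way was not counted, so these separations cannot be set against a background. The log2 fold change of Il15ra, −0.10 (SE 0.41), was −0.39 without RA replicate 4 and −0.33 without both libraries. Il2ra, the high-affinity chain CD25, was at 0.748, 1.25, 0.703 and 1.1 CPM in RA and at 1.32, 0.997, 1.54 and 1.32 CPM in RA+Dipy, with RA+Dipy replicate 2 within the RA range (0.46, SE 0.32). Il7r and Il2rb were not measured, at 0 to 6 and 3 to 11 reads per library.

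In the interleukin 17 receptor family, Il17rc and Il17re were lower and Il17rd higher in value. Il17re and Il17rc are neighbours on chromosome 6 (113458484 to 113470758 and 113471427 to 113483140). Il17rc, the partner of Il17ra in the receptor for interleukins 17A and 17F, was at 7.23, 5.38, 7.89 and 30.7 CPM in RA and at 7.52, 5.58, 4.62 and 6.08 CPM in RA+Dipy. Il17re, the chain for interleukin 17C, was at 1.32, 0.605, 0.625 and 4.14 CPM against 0.990, 1.03, 0.577 and 0.800 CPM. Both were highest in RA replicate 4 and overlapped otherwise. Their log2 fold changes of −1.09 (SE 0.52) and −0.90 (SE 0.61) stood at −0.19 and −0.03 without that library. Il17ra, the common chain, was at 2.01, 1.71, 2.66 and 5.32 CPM against 2.31, 2.73, 3.16 and 3.40 CPM (0.02, SE 0.37), and at 0.47 without RA replicate 4. Il17rd, known also as Sef, an inhibitor of fibroblast growth factor signalling, was at 3.13, 3.81, 3.83 and 2.79 CPM against 3.10, 4.14, 5.20 and 5.08 CPM. Its difference of 0.37 (SE 0.26) kept its sign in all 18 alternatives (0.28 to 0.50), and RA+Dipy replicate 1 lay within the RA range.

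The remaining receptor chains gave overlapping groups. Il10ra, the leukocyte chain of the interleukin 10 receptor, was at 1.26, 1.35, 2.50 and 6.09 CPM in RA and at 1.58, 1.55, 2.08 and 2.36 CPM in RA+Dipy (−0.51, SE 0.50, and 0.18 without RA replicate 4). Il10rb, the broadly expressed second chain, was at 7.58, 6.02, 6.91 and 8.79 CPM against 6.14, 6.54, 8.35 and 6.80 CPM (−0.07, SE 0.23), a spread of less than 2-fold over the 8 libraries. Il20rb was at 1.75 ± 0.317 and 2.31 ± 0.762 CPM (SD, n = 4 each; 0.40, SE 0.31), while its ligands Il19, Il20 and Il24 had 3, 0 and 6 reads in all. Il3ra, the interleukin 3 receptor alpha chain, had the lowest log2 fold change of all members (−1.50, SE 0.91). It was at 4.65, 2.28, 3.59 and 49.7 CPM in RA and at 9.37, 3.14, 5.23 and 3.44 CPM in RA+Dipy. Without RA replicate 4 the value was 0.60, with the opposite sign.

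The members that RA replicate 4 placed high or low differed in base composition. GC content was computed over all transcripts of a gene in GENCODE vM21. Of the 8 tested members with a GC content of at least 55%, 7 lay above the 8-library median in RA replicate 4, with a median deviation of 1.36 log2 units. Of the 12 members under 48%, 9 lay below it, with a median deviation of −0.61 (these limits were set after the values were seen). Il3ra, with the highest GC content (63.4%), deviated by 3.45, Il11ra1 (57.1%) by 2.30 and Il17rc (60.7%) by 2.13. Lifr (46.9%) deviated by −1.99 and Il1r1 (45.2%) by −1.97. Across the 33 members, which share each library, Pearson's r between GC content and deviation was 0.655 (Spearman's rho 0.567) in RA replicate 4, and over 12616 genes tested it was 0.348 (0.367).

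Smaller deviations ran the same way in RA replicate 1 and the opposite way in RA replicate 2. Over the members r was 0.645 and −0.727, and over all genes 0.437 and −0.346. All 12 members under 48% GC lay below the median in RA replicate 1, at a median deviation of −0.43, and 11 of the 12 lay above it in RA+Dipy replicate 4, at 0.16. Il13ra1 has the lowest GC content of the tested members (41.2%) and Il1rl2 has 46.8%. The part of base composition in the differences between the groups was not tested.

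**Figure D4:**
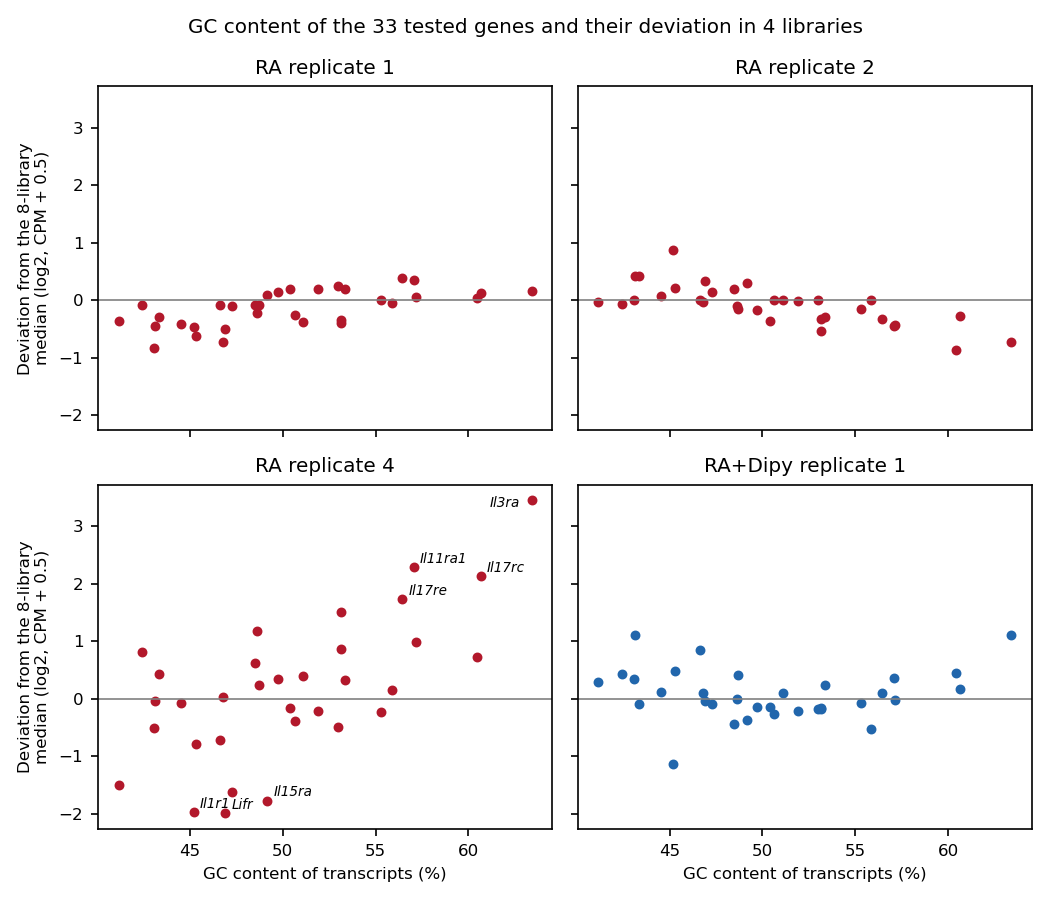
GC content of the transcripts (horizontal axis, %) against the deviation of each tested member from its 8-library median (vertical axis, log2 of CPM + 0.5) in 4 libraries, 33 points each. In RA replicate 4 the points run from about −1.99 (Lifr) to 3.45 (Il3ra), and the slope is shallow in RA replicate 1 and falls in RA replicate 2.

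Genes that carry interleukin signals inside the cell gave no call either, with 0 of 12755 genes called. Of 21 tested genes of the gp130 family and JAK-STAT pathway outside the members, 8 were positive and 13 negative (median −0.15, and 0.09 without the 2 libraries that stood apart). The receptor-bound kinase Jak1 stood at 0.43 (SE 0.33). The STAT-induced feedback inhibitors Socs1 (−1.38, SE 0.41) and Cish (−1.08, SE 0.61) were on the lower side, and Socs1 was its sole gene with an unadjusted p under 0.05 (adjusted p = 0.882 by edgeR). Of 17 response genes of interleukin 6 and leukaemia inhibitory factor, which include the members Osmr and Il4ra, 9 were positive and 8 negative (median 0.04, and 0.16 without the 2 libraries). Lbp (0.47, SE 0.23) and Serpina3n (0.95, SE 0.53), both acute-phase proteins, stood on the higher side, and the kinase Pim1 (−0.93, SE 0.35) and Lcn2 (−1.21, SE 0.76, but 0.05 without the 2 libraries) on the lower.

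Of 18 tested genes of interleukin 1 and 18 signalling and the inflammasome, 10 were positive and 8 negative (median 0.06, and 0.14 without the 2 libraries), and 0 had an unadjusted p under 0.05. The inflammatory caspase Casp4 (0.64, SE 0.39) and the inhibitory kinase Irak3 (0.44, SE 0.27) had the smallest p on the higher side, and Tab1 (−0.51, SE 0.33) and the adaptor Myd88 (−0.42, SE 0.30) on the lower. Of 7 genes of interleukin 17 signalling 4 were positive (median 0.04), with Nfkbiz at 0.53 (SE 0.36) and Traf3 at 0.33 (SE 0.28). Cxcl5, a neutrophil chemokine induced by interleukin 17, stood at −1.55 (SE 0.49, adjusted p = 0.882 by edgeR). Of 8 tested partner chains and related genes named outside the prefix 5 were positive (median 0.23). They include Csf2rb2, the beta chain of the mouse interleukin 3 receptor, at 0.97 (SE 0.36), and Csf1r, the receptor for interleukin 34, at 0.52 (SE 0.28), with Cntfr at −0.32 (SE 0.36) and Sigirr at −0.28 (SE 0.32).

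Markers of the cell types that could carry these receptors also differed in value, with 0 of them called. In pieces of muscle, fewer cells of a type and less RNA per cell cannot be told apart. By an unadjusted p under 0.05 in edgeR, 6 macrophage, 2 fibro-adipogenic progenitor and 2 adipocyte markers were higher and 3 Schwann cell markers lower. Over all genes 1.68% were higher and 2.15% lower by that measure. Of 14 macrophage markers 13 were positive (median 0.70). Their summed level was 141 to 213 CPM in RA replicates 1 to 3, 335 CPM in RA replicate 4 and 200 to 399 CPM in RA+Dipy. Of 10 fibro-adipogenic progenitor markers 9 were positive (median 0.25, sums of 2377 to 3339 and 2805 to 4041 CPM), and of 8 endothelial markers 5 (median 0.09, 287 to 302 and 220 to 358 CPM). Adipocyte markers had 7 of 8 positive (median 0.99, and 1.60 without the 2 libraries), with RA+Dipy replicate 4 far the highest. Their sums were 298 to 450 CPM in RA replicates 1 to 3 and 781 CPM in RA replicate 4. In RA+Dipy replicates 1 to 4 they were 816, 406, 444 and 1348 CPM. Adipoq was at 20.3, 19.9, 22.9 and 101 CPM in these 4 libraries. Schwann cell markers had 0 of 8 positive (median −0.72, and −0.51 without the 2 libraries that stood apart). Mast cell and basophil markers had 3 of 6 positive (median −0.07, but 0.32 without the 2 libraries that stood apart). Their sums were 23.6 to 30.1 CPM in RA replicates 1 to 3, 73.9 CPM in RA replicate 4 and 26.5 to 33.3 CPM in RA+Dipy. Of 4 satellite cell markers 1 was positive (median −0.11).

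Most markers of lymphocytes and neutrophils were near the limit of detection. T and NK cell markers summed to 1.72 to 3.97 CPM in RA and 1.78 to 3.00 CPM in RA+Dipy over 13 genes, of which 2 were tested. These were Cd3e, with 14 to 107 reads per library (−0.51, SE 0.34), and Cd2, with 0 to 27 reads (0.18, SE 0.66). Cd3d had 0 to 4 reads per library. Neutrophil markers summed over 10 genes to 0.641 to 1.16 CPM in RA replicates 1 to 3, 2.87 CPM in RA replicate 4 and 1.33 to 4.03 CPM in RA+Dipy. The 2 tested were Csf3r, with 7 to 25 reads per library, and S100a9, with 2 to 15. Ly6g had 2 reads in all, both in RA replicate 4. B cell markers summed to 0.498 to 1.01 and 0.308 to 0.858 CPM over 5 genes, none of which passed the filter. Muscle fibre markers, which define the tissue, summed to 146920 to 190593 CPM in RA and 149736 to 170525 CPM in RA+Dipy. No marker of these lists that stood in the tables was at 0 in all 8 libraries. The part of these cell types in the values of Il13ra1, Il1rl2, Il2rg and the other receptors was not tested.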

How the data were processed

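Poly(A) RNA from the gastrocnemius of 8 mice was sequenced as single reads of 100 bases. The authors deposited raw read counts per protein-coding gene symbol, not normalized. The design text has reads trimmed by fastp 0.20.0, STAR 2.7.3a as aligner on GRCm38.p6 (the aligner and build also in the submitters' processing notes) and HTSeq counting without regard to strand, and the submitters compared groups with DESeq2 1.44.0. Which annotation release was counted is not stated in those sources. Counting without strand cannot tell overlapping genes apart, and 11 of the 33 tested members share exon bases with another gene in GENCODE vM21, 3 of them over more than 10% (Il10rb, Il16 and Il2rg). The labels name a TruSeq preparation and the design text a directional NEBNext kit.

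Each table had 21859 lines, and 24 symbols on more than 1 line were summed. Genes were kept by filterByExpr (minimum count 10), which left 12755 and removed 9078. Libraries were scaled by TMM and compared in edgeR 4.0.16 by its quasi-likelihood test (R 4.3.3, robust estimates, group as the sole term), two-sided, with Benjamini-Hochberg adjustment over all genes tested and a threshold of 0.05. The method was tested on simulated data with a smaller spread between libraries than here and without libraries that stand apart. The common biological coefficient of variation of these data was 0.386, so that test does not show the power or error rate here. Alternatives used DESeq2 1.42.0 and limma 3.58.1, other scalings and filters, the replicate number as a block, and left-out libraries. Levels are CPM with TMM scaling, mean ± SD, and levels between genes are compared per kilobase of exon. The design text gives 4 mice per group, so p-values measure the spread between these mice, and no 2 libraries of a group agreed within sampling noise (smallest chi-square per degree of freedom 27.7). The members and lists were chosen with earlier results of these data known. Members named with all values were the 8 with the smallest p in each direction and others fixed by role, and from each pathway list the 2 genes with the smallest p in each direction (1 of these is not reported here); markers and other genes named were chosen after their values were seen. Library totals of 16405268 to 50647761 counts set the precision.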

Additional observations from a re-analysis of the deposited data

Results flagged for a closer look

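RA replicate 4 held 6 of the 8 values that lay far from the other 3 of their group, by Dixon's ratio above 0.829, among 68 groups of 4 values examined (the 33 tested members and the library totals, in each group of mice). About 1 in 20 groups is expected by chance where values are independent and normally distributed. These groups hold CPM not put on a log scale and share the same 8 libraries, so that rate need not hold here. In RA, Il11ra1 stood at 255 CPM in replicate 4, with the next library at 66.3. Il3ra stood at 49.7 CPM (next 4.65), Il17rc at 30.7 CPM (next 7.89), Il2rg at 2.87 CPM (next 0.89) and Il18 at 1.86 CPM (next 0.783). Il15ra was low in the same library, at 2.28 CPM, where the next was 9.65. In RA+Dipy, replicate 1 was high for Il15, at 7.79 CPM (next 4.62), and low for Il1r1, at 3.23 CPM (next 8.23). Of the 5 genes high in RA replicate 4, Il11ra1, Il3ra and Il17rc have a GC content of at least 55%, and Il2rg (48.6%) and Il18 (42.4%) do not.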

How the results depend on the processing

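No member passed an adjusted p of 0.05 in any of the 18 alternatives, and 16 of 33 members had no change of sign. Limma-voom with library weights called 138 of 12755 genes (114 higher, 24 lower), none a member. It put 12 members under an unadjusted p of 0.05 (9 higher, 3 lower), where 28.3% of all genes had such a p. That number was 4 with DESeq2 (5.8% of all genes) and 4 without a count filter (3.99%), 2 lower in each, and 6 (5 higher, 1 lower) without the 2 libraries that stood apart (11.4%). With 1 library left out it was 0 to 5 (0 to 3 higher, 0 to 2 lower), against 1.38% to 9.21% of all genes. With the replicate block 0 genes were called and 165, against 488, had an unadjusted p under 0.05. Same-numbered libraries had correlations of −0.196, 0.112, 0.148 and −0.266. Of the 4 RA libraries 1, replicate 3, correlated best with its own number. With so few libraries, 2 of which stood apart, these values cannot decide whether same-numbered mice were paired.

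Signs changed as follows, and the causes were not tested. With DESeq2 size factors Il17ra stood at −0.0023 and Il1rl1 at −0.013, and with the DESeq2 test Il1rl1 at −0.011. With upper-quartile factors Il17d stood at 0.0041, Il4ra at 0.031 and Il6ra at 0.061, and without a filter Il1r1 at −0.0016. With the replicate block Il15ra stood at 0.054, Il17d at 0.044 and Il6ra at 0.014. With limma-voom Il15ra stood at 0.068, Il17d at 0.0835, Il18 at 0.012 and Il6ra at 0.0375. With library weights Il10ra stood at 0.19, Il10rb at 0.11, Il16 at −0.17, Il3ra at 0.18, Il4ra at 0.17, Il6ra at 0.30 and Il6st at 0.048. Without both libraries Il10ra stood at 0.26, Il10rb at 0.087, Il16 at −0.0215, Il17d at 0.061, Il18 at 0.13, Il1r1 at −0.043, Il34 at 0.023, Il3ra at 0.16, Il4ra at 0.16, Il6ra at 0.15, Il6st at 0.0425 and Lifr at −0.037. With single libraries left out the ranges that crossed 0 were −0.77 to 0.18 for Il10ra, −0.17 to 0.038 for Il10rb, −0.39 to 0.046 for Il15ra, −0.12 to 0.15 for Il16, −0.32 to 0.26 for Il17d, −0.16 to 0.47 for Il17ra, −0.26 to 0.32 for Il18, −0.28 to 0.60 for Il1r1, −0.29 to 0.30 for Il1rl1, −0.19 to 0.75 for Il2rg, −0.52 to 0.044 for Il34, −1.90 to 0.60 for Il3ra, −0.12 to 0.10 for Il4ra, −0.13 to 0.22 for Il6ra, −0.12 to 0.34 for Lif and −0.043 to 0.52 for Lifr. Leaving out RA replicate 4 moved 11 members by over 0.3, and any other single library 0 to 2. With 34 of 53 unmeasured members under 10 reads in all, depth limits any statement on them.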
